A study of Mus musculus with 18 samples.

Results

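Selenoproteins are proteins that carry selenocysteine, an amino acid that the cell writes into a protein at a UGA codon. The 10 genes described here are Selenok, Selenof, Selenom, Selenot, Gpx1, Gpx4, Txnrd2, Selenow, Selenop and Sephs2. They were taken by gene symbol, and all 10 are among the 6929 genes with a transcript that had reads in every library of the series. Their RefSeq transcripts number 17, of which 15 had at least 1 read in all 18 libraries, and the reads and RPKM values of those 15 were summed per gene. RPKM is the read count scaled to the library's total and to the length of the transcript. The libraries come from MIN6 cells, a mouse β-cell line derived from an insulinoma, so every group shares that tumour line and its culture medium. Control cells received DMSO for 18 h, CPA1 cells 200 µM cyclopiazonic acid (CPA) for 1 h and CPA18 cells the same dose for 18 h. CPA inhibits SERCA, which loads the ER with calcium, and the 1 h and 18 h exposures are the acute and the chronic phase of ER stress in this study. Each treatment was sequenced by mRNA-seq and by Ribo-seq in 3 independent experiments. Their ratio of RPKM is the ribosome occupancy (ribo ocp) of an mRNA.

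Selenocysteine is put in at UGA by a tRNA of its own and a dedicated elongation factor, which act on mRNAs that carry a hairpin, the SECIS element, in the 3′ untranslated region. When this fails, the same UGA acts as a stop codon, and a stop codon ahead of an exon junction can expose an mRNA to nonsense-mediated decay. Several selenoproteins sit in the ER, where they take part in protein folding and in the removal of misfolded proteins, and others reduce peroxides with glutathione. β cells are known for low levels of the enzymes that remove hydrogen peroxide.

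The selenocysteine codon is the feature that defines these mRNAs, so it is shown with its neighbours for each gene. The coding strand is printed from 12 bases before the codon, with the selenocysteine TGA in capitals, as read from the RefSeq annotation and genome GRCm38.p6. For Gpx4 and Txnrd2 the codon number is that of the RefSeq Select transcript, and for Selenop the first of 10 such codons is shown.
Selenok: atggctggtggaTGAggaaggtaa
Selenof: gaagtctgcggaTGAaaattggggagg
Selenom: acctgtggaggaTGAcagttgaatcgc
Selenot: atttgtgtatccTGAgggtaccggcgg
Gpx1: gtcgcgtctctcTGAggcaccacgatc
Gpx4: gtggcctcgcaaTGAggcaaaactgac
Txnrd2: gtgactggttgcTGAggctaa
Selenow: tattgtggagctTGAggctataagccc
Selenop: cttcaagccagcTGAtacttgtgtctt
Sephs2: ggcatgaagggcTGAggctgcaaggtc
In 7 of 10 genes the next codon encodes glycine, and Selenof, Selenom and Selenop are the exceptions. In Selenok and Txnrd2 the printed stretch ends with the true stop codon.

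The place of the codon in the mRNA differed widely between the genes. In Selenok it is codon 92 of 95, stop codon included (exon 4 of 5, chr14:29973440-29973442, plus strand), and it lies 5 bases before the last exon junction. In Txnrd2 it is codon 526 of 528 (exon 17 of 18, chr16:18477772-18477774, plus strand), 83 bases before the last junction. The codon stands near the middle of the coding region in Selenof, as codon 93 of 163 (exon 3 of 5, chr3:144590645-144590647, plus strand). It falls in the first part of the coding region in Selenom at codon 48 of 146 (exon 2 of 5, chr11:3516273-3516275, plus strand) and in Selenot at codon 49 of 196 (exon 2 of 6, chr3:58585238-58585240, plus strand). The same holds for Gpx1 at codon 47 of 202 (exon 1 of 2, chr9:108339451-108339453, plus strand) and for Gpx4 at codon 73 of 198 (exon 3 of 7, chr10:80054737-80054739, plus strand). In Selenow it is codon 13 of 89 (exon 2 of 6, chr7:15920464-15920466, minus strand). Selenop has 10 such codons, from codon 59 (exon 2 of 5, chr15:3274848-3274850, plus strand) to codon 377 of 381. In Sephs2 it is codon 63 of 453 (chr7:127273731-127273733, minus strand), in an mRNA of a single exon that therefore has no junction. In the other 9 genes the first selenocysteine codon lies 5 to 470 bases before the last exon junction. The coding region made up 16.5% of the mRNA in Selenot and 83.1% in Txnrd2, the lowest and the highest of the 10. The tables hold 1 count per transcript and library, so footprints before and after the codon cannot be told apart.

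**Figure D1:**
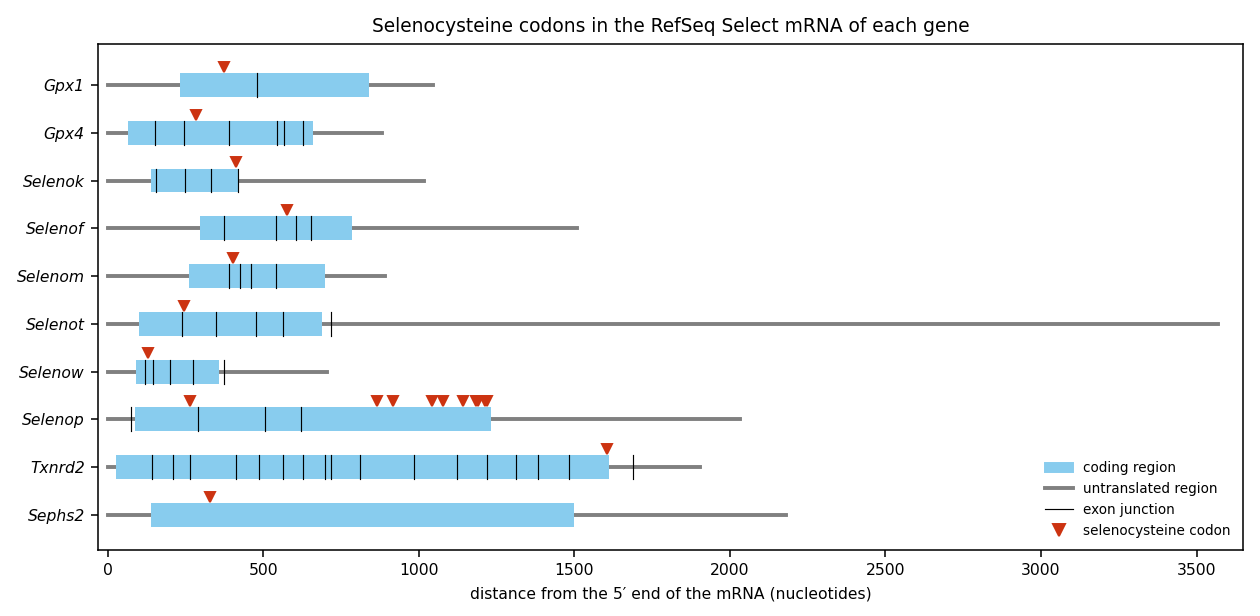
Map to scale of the RefSeq Select mRNA of each gene, with the distance from the 5′ end in nucleotides on the horizontal axis, the coding region as a bar, exon junctions as ticks and selenocysteine codons as triangles. The triangle sits at the end of the coding region in Selenok and Txnrd2, and Selenop carries 10 of them.

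Total counts ran from 520960 to 4755030 in mRNA-seq and from 168129 to 1083297 in Ribo-seq, and the median Ribo-seq library fell from 929649 reads for control to 470602 for CPA1 and 203108 for CPA18. All 10 β-cell markers on the list used had reads in every library, Ins1, Ins2, Pdx1 and Mafa among them. Their summed mRNA-seq RPKM was 155306 to 457744 in control and 42752 to 131554 in CPA18. The lists for δ, PP, acinar, duct, fibroblast, endothelial and leukocyte markers had no transcript with reads in every library, and their summed RPKM did not pass 8.56. Of 5 α-cell markers Gcg and Ttr had a transcript with reads in every library. The list summed to 951 to 2630 RPKM in control and 150 to 403 in CPA18, and the part of such cells in the results was not tested. In bulk samples fewer cells of a type and less RNA per cell cannot be told apart. The control mRNA-seq library of experiment 1, the shallowest of its assay, stood apart. Across genes its log2 RPKM correlated with the other control mRNA-seq libraries at r = 0.888 to 0.891 and with the control Ribo-seq libraries at r = 0.891 to 0.903. The other control mRNA-seq libraries reached 0.965 with each other and 0.825 to 0.849 with Ribo-seq. The CPA1 and CPA18 mRNA-seq libraries of experiment 1 also correlated most with Ribo-seq of their treatment (r = 0.895 to 0.918 and 0.896 to 0.933). These values were 0.869 to 0.899 and 0.847 to 0.894 in experiment 2, and 0.816 to 0.859 and 0.829 to 0.882 in experiment 3. Both experiment 1 libraries still correlated more with mRNA-seq of their own group (0.926 to 0.959 and 0.941 to 0.946). These correlations are across genes, which are not independent replicates. The control libraries of experiment 2 carry descriptions that name the opposite assay and were placed by their titles, and by these correlations each sat with its titled assay. In mRNA-seq the experiment 1 library was the lowest of its group for 6 of 10 genes in control, for 7 in CPA1 and for 10 in CPA18. The relative SD between the 3 control libraries had a median of 46.4% by mRNA-seq and 9.69% by Ribo-seq over the 9 genes other than Selenop, so the control Ribo-seq values were the tighter ones.

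In control cells the 10 mRNAs covered a wide range of abundance. By mRNA-seq, Selenow (392 ± 192 RPKM, SD, n = 3) and Gpx4 (362 ± 168) stood at percentiles 97.8 and 97.6 of the 6929 genes. Gpx1 (182 ± 90.3), Selenom (136 ± 64.4), Selenof (120 ± 26.7) and Selenok (112 ± 32.2) followed. Their ranges overlapped from neighbour to neighbour, so their order is not fixed by these libraries. The Selenok libraries all lay above those of Txnrd2 (42.5 ± 13.9), whose values overlapped Selenot (36.1 ± 20.6), as did those of Sephs2 (32.9 ± 4.25). Selenop, the plasma carrier of selenium, was far below the rest at 3.40 ± 1.83 RPKM, percentile 25.1, on 4 to 17 reads per library. By Ribo-seq Gpx4 led in all 3 control libraries (161 ± 8.81 RPKM), ahead of Selenof (117 ± 12.2), Selenow (113 ± 16.8), Gpx1 (108 ± 30.5) and Selenot (94.9 ± 1.82), whose ranges overlapped in turn. Selenom (71.1 ± 6.89), Selenok (46.2 ± 3.96), Txnrd2 (40.6 ± 7.56), Sephs2 (28.6 ± 2.53) and Selenop (3.19 ± 0.838) came below.

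Ribo ocp in control put the genes in another order by their mean log2 values. The range of each gene overlapped that of the next, so this order is not fixed by these libraries either. RPKM was scaled to the whole transcript in both assays, so the ratio does not correct for the coding share of an mRNA. That share differed between the genes, and its part in this order was not tested. A low ratio therefore does not by itself show that an mRNA was poorly translated. Selenot had a ratio of 3.42 ± 2.19 (1.62, 2.78 and 5.86 in experiments 1, 2 and 3), percentile 83.8 of all genes on the mean log2 scale. Selenow had 0.377 ± 0.269 (0.681, 0.169 and 0.281), percentile 3.46, and Selenok 0.438 ± 0.136 (0.587, 0.404 and 0.321), percentile 6.97. The median gene stood at 1.4, 1.13 and 1.19 in the 3 experiments. Gpx4 stood at percentile 9.51, Selenom at 13.9, Gpx1 at 17.3 and Sephs2 at 30.7. Txnrd2 came to percentile 36.7, Selenof to 37.0 and Selenop to 39.4.

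After 18 h of CPA, 4 of the 10 mRNAs rose (Selenok, Gpx4, Selenof and Selenom) and Selenot fell, and in Ribo-seq 4 rose (Selenok, Selenom, Gpx4 and Selenow) and none fell. By edgeR with the experiment as a block, 34.9% of all genes passed in mRNA-seq, made up of 27.0% that were higher and 7.89% that were lower. In Ribo-seq 31.8% passed, and 25.6% were higher. Thus 5 and 4 of 10 lie near the background. The 10 genes had a median log2 fold change of 0.30 by mRNA-seq and 0.50 by Ribo-seq, against 0.38 and 0.42 for all genes. The 3 CPA18 libraries lay above the 3 control libraries for 2 of 10 in mRNA-seq, as for 14.8% of all genes. In Ribo-seq they lay above for 6 and below for 1, as for 31.0% and 8.75% of all genes. The balance of calls depended on the scale. Relative to the median gene, 3 mRNAs were higher and 2 lower, and with an offset for GC content and length 3 were higher and 4 lower. In Ribo-seq these counts were 4 higher and 1 lower and 3 higher and 1 lower. Here and below, shares of all genes on these scales are not given, so such splits have no background beside them. Centring itself brings the median log2 fold change of all genes to 0.0069 in mRNA-seq and -0.0011 in Ribo-seq. Without the block, 0 of the 10 mRNAs passed by edgeR and 2 had an unadjusted p under 0.05, as did 1.98% and 19.3% of all genes. With the block DESeq2 called 4 of the 10, and 1738 of all 6929 genes. By its pseudocount limma called 4 or 5, and 1880 of all genes at a pseudocount of 0.5. All 4 footprint calls passed without the block as well, where 26.5% of all genes passed. When the control mRNA-seq library of experiment 1 was left out, the 4 mRNAs that rose still passed (adjusted p from 0.00137 to 0.0283) and Selenot did not.

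Selenok, of the ER, showed the largest change of the 10. SELENOK is a small ER membrane protein that binds p97 and the derlins, which draw misfolded proteins out of the ER. Its mRNA-seq RPKM was 75.4, 125 and 135 in the control libraries of experiments 1, 2 and 3, 86.3, 84.4 and 142 in CPA1 and 152, 355 and 274 in CPA18. In Ribo-seq the RPKM was 44.3, 50.7 and 43.5 in control, 83.3, 57.5 and 109 in CPA1 and 257, 281 and 192 in CPA18. In both assays every CPA18 library lay above every control library, and in Ribo-seq every CPA1 library did as well. After 18 h the mRNA rose 2.30-fold (log2 fold change 1.2, SE 0.26, edgeR adjusted p = 5.96e-05), but without the experiment as a block the adjusted p was 0.189. Footprints rose 5.11-fold (log2 fold change 2.35, SE 0.24, adjusted p = 1.88e-14, and 2.1e-08 without the block), on 37 to 48 control and 44 to 108 CPA18 reads per library. After 1 h footprints were up 1.82-fold (log2 fold change 0.86, SE 0.26, adjusted p = 0.0213), on 23 to 52 reads. That call did not pass without the block (adjusted p = 0.0785), without experiment 1 (0.127) or without experiment 3 (0.316). The mRNA at 1 h differed by a log2 fold change of -0.08 (SE 0.26, adjusted p = 0.989).

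SELENOM and SELENOF are thioredoxin-like proteins of the ER, and SELENOF binds the glucosyltransferase that recognises unfolded glycoproteins. Selenom mRNA-seq RPKM was 61.4, 177 and 168 in control, 52.5, 108 and 149 in CPA1 and 82.6, 311 and 336 in CPA18. Footprint RPKM was 78.0, 71.2 and 64.2 in control, 65.9, 89.96 and 134 in CPA1 and 171, 228 and 245 in CPA18. The Ribo-seq groups of control and CPA18 were far apart, whereas in mRNA-seq the experiment 1 library of CPA18 lay inside the control range. After 18 h Selenom footprints rose 3.01-fold (log2 fold change 1.59, SE 0.24, adjusted p = 5.03e-08, and 1.77e-05 without the block). Its mRNA rose 1.71-fold (log2 fold change 0.78, SE 0.26, adjusted p = 0.0125), a call that did not pass relative to the median gene (0.0778), without the block (0.424), without experiment 3 (0.289) or without the control mRNA-seq library of experiment 2 (0.0704).

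Selenof mRNA-seq RPKM was 115, 95.5 and 148 in control, 77.3, 83.3 and 204 in CPA1 and 153, 243 and 258 in CPA18. Its Ribo-seq RPKM was 113, 108 and 131 in control, 95.4, 104 and 81.4 in CPA1 and 220, 140 and 148 in CPA18. Every CPA18 library lay above every control library in both assays, and every CPA1 footprint library below every control library. The mRNA rose 1.85-fold after 18 h (log2 fold change 0.88, SE 0.25, adjusted p = 0.00281), with adjusted p-values of 0.347 without the block, 0.0516 without experiment 2, 0.0961 without its control mRNA-seq library alone and 0.0975 without experiment 3. In Ribo-seq the difference between CPA18 and control was a log2 fold change of 0.49 (SE 0.20, adjusted p = 0.0541), that is 0.05 relative to the median gene. Between CPA1 and CPA18 Selenof footprints rose 1.77-fold (log2 fold change 0.82, SE 0.22, adjusted p = 0.00224, and 0.0119 without the block). Without experiment 1 that adjusted p was 0.103, and relative to the median gene it was 0.0931.

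Selenot moved the other way. SELENOT is a thioredoxin-like oxidoreductase of the ER membrane. Its mRNA-seq RPKM was 57.6, 34.1 and 16.5 in control, 29.2, 26.6 and 18.8 in CPA1 and 11.9, 19.2 and 16.7 in CPA18. The fall was steep in experiment 1, smaller in experiment 2 and absent in experiment 3. Over all libraries the mRNA fell by 0.99 on the log2 scale after 18 h (SE 0.29, adjusted p = 0.00356), but the adjusted p was 0.22 without the block, 0.337 without experiment 1 and 0.160 without the control mRNA-seq library of experiment 1 alone. Ribo-seq RPKM was 93.1, 94.8 and 96.8 in control, 96.4, 121 and 105 in CPA1 and 72.8, 82.1 and 64.8 in CPA18. All CPA18 footprint libraries lay below all those of control and CPA1. Against CPA1 the fall was 0.57 on the log2 scale (SE 0.19, adjusted p = 0.0191, 0.0541 without the block and 0.0575 to 0.109 with each experiment left out). Against control the log2 fold change was -0.40 (SE 0.19, adjusted p = 0.0901), and relative to the median gene it was -0.83 (adjusted p = 0.00039).

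**Figure D2:**
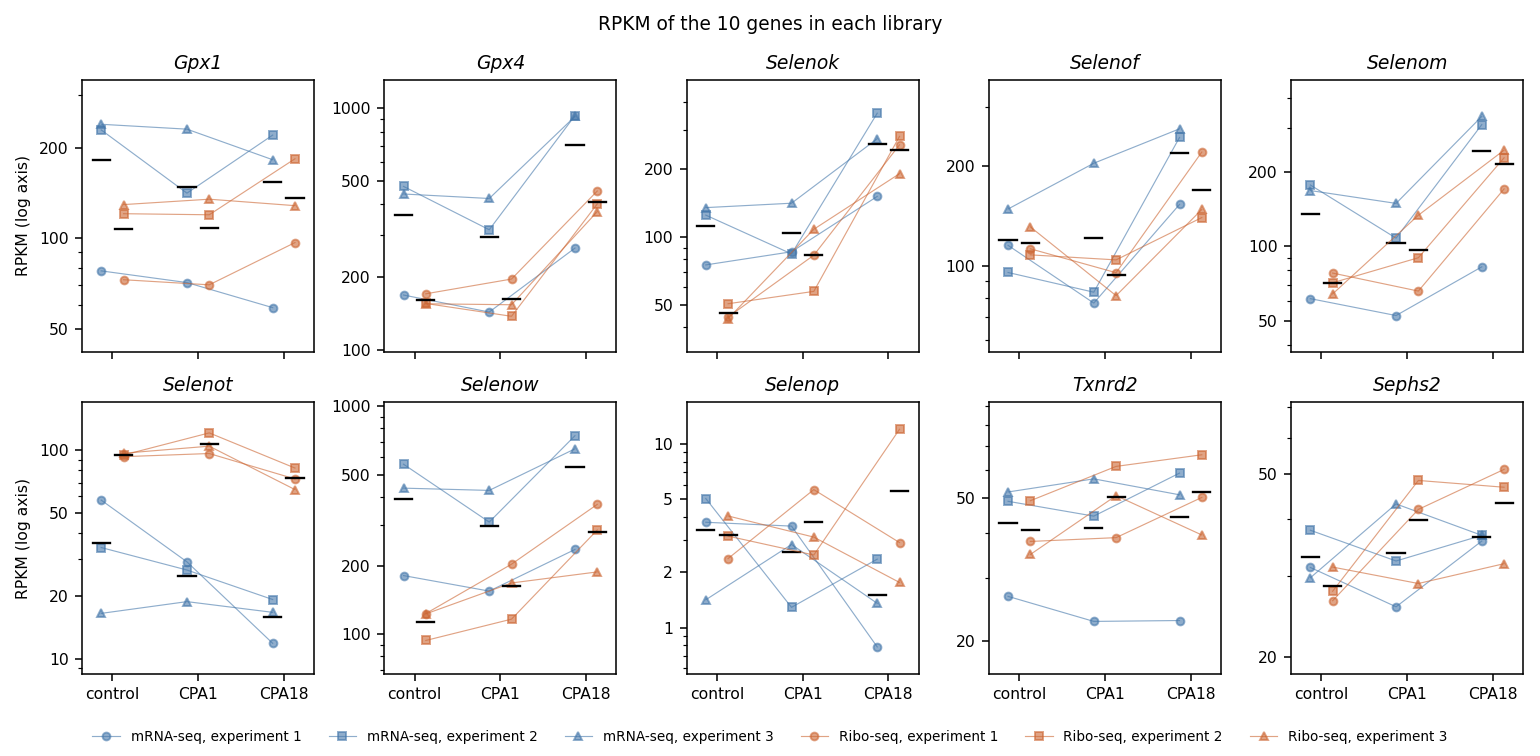
RPKM on a log axis for each of the 10 genes in each library, by treatment, with experiments as symbols joined by lines, mRNA-seq in blue, Ribo-seq in orange and the mean of 3 libraries as a black bar. The Ribo-seq libraries of CPA18 lie above those of control in Selenok, Selenom, Gpx4 and Selenow, among others, and below them in Selenot.

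Glutathione peroxidases reduce peroxides at the expense of glutathione, and GPX4, which acts on lipid peroxides in membranes and guards cells from ferroptosis, changed in both assays. Gpx4 mRNA-seq RPKM was 169, 475 and 442 in control, 144, 314 and 423 in CPA1 and 264, 932 and 925 in CPA18. In Ribo-seq the RPKM was 171, 156 and 155 in control, 197, 138 and 154 in CPA1 and 455, 402 and 374 in CPA18. The footprint groups of control and CPA18 did not overlap, and the mRNA was higher in CPA18 within each experiment although the groups overlapped. Footprints rose 2.53-fold after 18 h (log2 fold change 1.34, SE 0.19, adjusted p = 1.15e-08, and 1.86e-05 without the block). The mRNA rose 1.88-fold (log2 fold change 0.91, SE 0.24, adjusted p = 0.00157), with an adjusted p of 0.368 without the block and 0.121 without experiment 3.

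GPX1 is the main glutathione peroxidase of the cytosol. Gpx1 mRNA-seq RPKM was 78.0, 229 and 239 in control, 71.4, 141 and 231 in CPA1 and 58.9, 220 and 182 in CPA18. Footprint RPKM was 72.9, 121 and 130 in control, 70.1, 120 and 135 in CPA1 and 96.9, 184 and 128 in CPA18. The groups overlapped in both assays and no comparison of counts by library total passed. The mRNA log2 fold change of CPA18 against control was -0.26 (SE 0.25, adjusted p = 0.438), negative in 3 of 3 experiments. Relative to the median gene it was -0.63 (adjusted p = 0.0163). Of the 3 Gpx1 transcripts 1 lacks the selenocysteine codon and took 30.05% of the control mRNA-seq reads and 19.0% of the control footprints of the gene. The 3 overlap in sequence, so reads of one may be counted for another and the shares are uncertain, as they are for the 3 Gpx4 and the 2 Txnrd2 transcripts.

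Txnrd2 encodes the thioredoxin reductase of mitochondria. Its mRNA-seq RPKM was 26.6, 48.9 and 52.0 in control, 22.6, 44.5 and 56.5 in CPA1 and 22.8, 58.7 and 51.0 in CPA18. Its Ribo-seq RPKM was 37.8, 49.1 and 34.8 in control, 38.8, 61.3 and 50.8 in CPA1 and 50.2, 66.0 and 39.4 in CPA18. The groups overlapped throughout. The 18 h log2 fold change came to 0.03 by mRNA-seq (SE 0.29, adjusted p = 0.936) and 0.31 by Ribo-seq (SE 0.26, adjusted p = 0.397), and both turned negative relative to the median gene (-0.33 and -0.13).

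SELENOW is a small thioredoxin-like protein of the cytosol. Selenow mRNA-seq RPKM was 181, 557 and 437 in control, 155, 310 and 427 in CPA1 and 235, 742 and 650 in CPA18. In Ribo-seq the RPKM was 123, 93.9 and 123 in control, 203, 116 and 168 in CPA1 and 371, 286 and 188 in CPA18. Footprints of CPA18 lay above all control libraries, whereas the mRNA groups overlapped. Footprints rose 2.34-fold after 18 h (log2 fold change 1.23, SE 0.23, adjusted p = 1.11e-05, and 0.00071 without the block). The log2 fold change was 0.79 relative to the median gene (adjusted p = 0.00482). The mRNA log2 fold change was 0.46 (SE 0.24, adjusted p = 0.135).

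SEPHS2 makes selenophosphate, the selenium donor for selenocysteine, and is itself a selenoprotein. Sephs2 mRNA-seq RPKM was 31.3, 37.8 and 29.7 in control, 25.7, 32.4 and 43.1 in CPA1 and 35.8, 36.8 and 36.8 in CPA18. Footprint RPKM was 26.5, 27.8 and 31.4 in control, 41.9, 48.5 and 28.9 in CPA1 and 51.3, 46.9 and 31.9 in CPA18. The CPA18 footprint libraries all lay above control, the lowest of them by a small margin. The log2 fold change after 18 h was 0.15 in mRNA-seq (SE 0.29, adjusted p = 0.707) and 0.52 in Ribo-seq (SE 0.27, adjusted p = 0.138), the latter 0.09 relative to the median gene.

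Selenop was close to the limit of detection. Of its 3 transcripts 1 had reads in all libraries, with 2 to 23 mRNA-seq reads and 1 to 9 footprints per library. Its mRNA-seq RPKM was 3.74, 5.04 and 1.42 in control, 3.57, 1.29 and 2.83 in CPA1 and 0.785, 2.36 and 1.36 in CPA18. Its Ribo-seq RPKM was 2.37, 3.15 and 4.05 in control, 5.63, 2.48 and 3.11 in CPA1 and 2.90, 12 and 1.76 in CPA18. The groups overlapped, and so few reads gave wide standard errors. The log2 fold change after 18 h was -0.92 in mRNA-seq (SE 0.52, adjusted p = 0.156) and 0.44 in Ribo-seq (SE 0.58, adjusted p = 0.636). With all 3 transcripts summed the mRNA log2 fold change was -1.05 (SE 0.42, adjusted p = 0.0624).

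After 1 h, 0 of 10 mRNAs passed (0 at an unadjusted p under 0.05, and 0 by DESeq2 and limma), where 0.938% of all genes did and 6.57% had an unadjusted p under 0.05. The log2 fold changes ran from -0.43 in Selenot over -0.36 in Selenom and Selenow, -0.29 in Gpx4, -0.28 in Gpx1, -0.23 in Selenop, -0.07 in Selenof and -0.06 in Txnrd2 to 0.03 in Sephs2, with Selenok as given above. In Ribo-seq Selenok passed, 1 of 10 where 6.67% of all genes did and 3.75% as higher. The other 9 had footprint log2 fold changes of 0.50 in Selenow, 0.44 in Sephs2, 0.42 in Selenom, 0.31 in Txnrd2, 0.24 in Selenop, 0.17 in Selenot, 0.02 in Gpx4, 0.002 in Gpx1 and -0.34 in Selenof (edgeR adjusted p from 0.198 to 0.999). The 3 CPA1 footprint libraries did not overlap control for Selenok, which was higher as 10.3% of genes were, and for Selenof, which was lower as 8.99% were. Between 1 h and 18 h, 5 of 10 mRNAs rose, where 39.6% of all genes passed and 33.8% as higher. On the median-gene scale these calls were 4 higher and 1 lower (Selenot), and with the GC and length offset 3 higher and 4 lower (Gpx1, Selenot, Txnrd2 and Sephs2). Gpx4 (log2 fold change 1.2, SE 0.24), Selenok (1.28, SE 0.26), Selenof (0.95, SE 0.25) and Selenom (1.14, SE 0.26) were those higher against control too. Selenow (log2 fold change 0.81, SE 0.24, adjusted p = 0.00411, and 0.0557 without experiment 3) joined them, but came to 0.40 (0.0815) relative to the median gene and 0.18 (0.312) with the offset. Selenot (-0.56), Selenop (-0.69), Sephs2 (0.12), Txnrd2 (0.09) and Gpx1 (0.02) did not pass by library total. None of the 5 passed without the block (adjusted p from 0.142 to 0.36, with 3 of the 10 at an unadjusted p under 0.05), where 2.16% of all genes passed and 21.1% had such a p, and Selenok was the single gene without overlap, as 15.6% of genes were in that direction. In Ribo-seq 5 rose and Selenot fell, where 23.6% passed, 18.2% as higher and 5.41% as lower. For 4 of the 10 the footprint libraries of CPA18 lay above those of CPA1 and for Selenot below, as for 25.0% and 7.0% of all genes. Gpx4 (log2 fold change 1.32, SE 0.21), Selenok (1.49, SE 0.25) and Selenom (1.17, SE 0.25) also passed without the block, as did Selenof. Selenow (0.72, SE 0.24, adjusted p = 0.0178) did not (0.0619), nor without experiment 1 (0.133) or experiment 2 (0.271), and came to 0.39 (0.271) relative to the median gene and 0.06 (0.904) with the offset. Gpx1 (0.29), Selenop (0.19), Sephs2 (0.08) and Txnrd2 (-0.003) did not pass. Of the footprint calls 3 were higher and 1 lower when set against the median gene, as with the offset. The comparisons share their control or CPA1 libraries and are not independent.

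The scale matters for these values. Each is a share of its library, so a rise in footprints does not show more footprints per cell. The study reports that protein synthesis fell under CPA and then recovered in part. The median gene of CPA18 lay 0.38 above control in mRNA-seq and 0.42 in Ribo-seq on the log2 scale against the library total. Relative to the median gene, the mRNA log2 fold change was 0.84 for Selenok (adjusted p = 0.00447), 0.57 for Gpx4 (0.00927), 0.57 for Selenof (0.0318) and -1.31 for Selenot (0.000671). In Ribo-seq it was 1.91 for Selenok (adjusted p = 9.01e-12), 1.16 for Selenom (4.02e-05) and 0.90 for Gpx4 (0.000118). These genes had one direction on either scale. Values of Sephs2 and Txnrd2 in mRNA-seq and of Gpx1 and Txnrd2 in Ribo-seq, none of which passed by library total, were positive by that scale and negative relative to the median gene. Most of the 10 mRNAs are short, from 722 nucleotides in Selenow to 3597 in Selenot where the median gene has 2850, and GC content ran from 38.9% in Selenot to 60.4% in Selenom. With an offset for GC content and length, footprints of Selenok (log2 fold change 1.89, adjusted p = 1.27e-12), Selenom (0.91, 0.0006) and Gpx4 (0.64, 0.00308) still rose, Selenow did not pass (0.51, 0.0669) and Selenot fell by 0.67 (0.00139). In mRNA-seq Gpx1 then fell by 0.87 (0.000172), Txnrd2 by 0.57 (0.0219), Selenot by 1.01 (0.000715) and Selenop by 1.32 (0.0499), while Selenom did not pass (0.33, 0.0923).

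**Figure D3:**
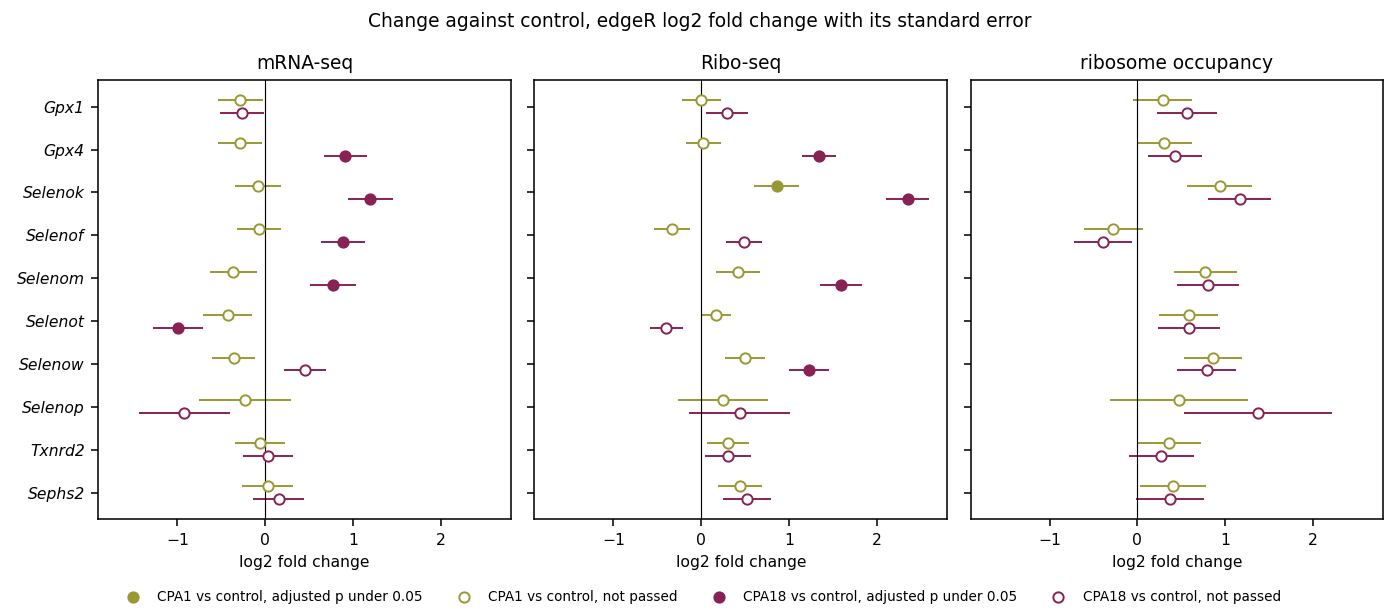
edgeR log2 fold change with its standard error for each gene in mRNA-seq, Ribo-seq and ribo ocp, CPA1 against control and CPA18 against control, with filled points where the adjusted p is under 0.05. Selenok in Ribo-seq after 18 h is the largest change, at 2.35, and no point of ribo ocp is filled.

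A change in ribo ocp asks whether footprints moved more or less than the mRNA. In no comparison did any of the 10 genes pass, where 0.0866% of all genes did after 1 h, 0.476% after 18 h and 0.0722% between CPA1 and CPA18. By edgeR 3, 3 and 0 of the 10 had an unadjusted p under 0.05, as did 7.12%, 9.18% and 5.99% of all genes, and DESeq2 and limma called 0. Selenok ribo ocp was 0.587, 0.404 and 0.321 in control, 0.966, 0.682 and 0.766 in CPA1 and 1.69, 0.789 and 0.6999 in CPA18. Both CPA groups lay above all control libraries, as 5.33% of all genes did after 1 h and 4.16% after 18 h. The log2 difference from control was 0.94 in CPA1 (SE 0.37, adjusted p = 0.504) and 1.16 in CPA18 (SE 0.36, adjusted p = 0.154, higher in 3 of 3 experiments). Selenow ribo ocp was 0.681, 0.169 and 0.281 in control, 1.31, 0.375 and 0.393 in CPA1 and 1.58, 0.386 and 0.289 in CPA18, with experiment 1 above the others in each group. Its log2 difference was 0.86 in CPA1 (SE 0.33, adjusted p = 0.489) and 0.79 in CPA18 (SE 0.33, adjusted p = 0.443). Selenom came to 0.80 in CPA18 (SE 0.35, adjusted p = 0.464), and Gpx4, whose mRNA and footprints both rose, to 0.43 (SE 0.30, adjusted p = 0.687). Selenof had a log2 difference of -0.39 (SE 0.33, adjusted p = 0.744), negative in experiments 2 and 3 and positive in experiment 1. Selenot ran from 1.62 to 5.86 within control alone, and its log2 difference in CPA18 was 0.59 (SE 0.35, adjusted p = 0.614). Gpx1 came to 0.57 (SE 0.34), Selenop to 1.37 (SE 0.84), Sephs2 to 0.37 (SE 0.39) and Txnrd2 to 0.27 (SE 0.37). In CPA1 the differences from control were 0.77 in Selenom, 0.59 in Selenot, 0.47 in Selenop, 0.41 in Sephs2, 0.36 in Txnrd2, 0.31 in Gpx4, 0.29 in Gpx1 and -0.27 in Selenof. Between CPA1 and CPA18 the 10 genes lay between -0.12 in Selenof and 0.90 in Selenop (adjusted p of at least 0.934).

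Of 14 other mouse selenoprotein genes, 8 had a transcript with reads in every library. After 18 h 3 of them changed in both assays, where 34.9% of all genes passed in mRNA-seq and 31.8% in Ribo-seq. Dio1, a deiodinase that turns thyroxine into its active form, fell most. Its mRNA-seq RPKM was 27.0, 72.3 and 66.7 in control, 28.9, 43.4 and 85.1 in CPA1 and 1.89, 6.78 and 4.56 in CPA18. In Ribo-seq the RPKM was 31.4, 42.2 and 40.02 in control, 38.4, 38.8 and 48.5 in CPA1 and 6.97, 8.65 and 12.7 in CPA18. Every CPA18 library lay below all others, and the mRNA fell by 3.56 on the log2 scale (SE 0.35, adjusted p = 2.29e-19, and 0.00417 without the block) and footprints by 1.89 (SE 0.38, adjusted p = 3.84e-05), the latter on 2 to 12 reads per CPA18 library.

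Selenos, an ER membrane partner of p97 and the derlins like Selenok, rose. Its mRNA-seq RPKM was 62.8, 74.1 and 78.2 in control and 127, 313 and 316 in CPA18, and its Ribo-seq RPKM was 56.8, 48.4 and 62.7 in control and 214, 162 and 232 in CPA18. The log2 fold change was 1.77 in mRNA-seq (SE 0.27, adjusted p = 4.62e-09, and 0.0716 without the block) and 1.84 in Ribo-seq (SE 0.23, adjusted p = 5.16e-11). Selenon, an ER protein linked to calcium handling, fell by 0.76 in mRNA-seq (SE 0.25, adjusted p = 0.0116, and 0.425 without the block) and by 0.75 in Ribo-seq (SE 0.25, adjusted p = 0.0167). Txnrd1, Selenoh, Selenoi, Selenoo and Msrb1 had log2 fold changes of 0.26 to 0.61 in mRNA-seq and 0.08 to 0.73 in Ribo-seq, none of which passed. After 1 h none of the 8 passed in either assay, with log2 fold changes of -0.62 to -0.01 in mRNA-seq and -0.29 to 0.39 in Ribo-seq. Against CPA1, CPA18 was lower for Dio1 (-3.50 and -2.05) and higher for Selenos (1.95 and 1.64) in mRNA-seq and Ribo-seq. Selenoo mRNA was higher (0.90, SE 0.30, edgeR adjusted p = 0.0117, and 0.275 without the block), but not relative to the median gene (0.45, 0.119) or with the GC and length offset (0.30, 0.318). Selenon passed as lower on these 2 scales, in mRNA-seq (-0.91, 0.00146, and -0.92, 0.000298) and in Ribo-seq (-0.92, 0.00563, and -0.90, 0.0045). With the offset Selenoi mRNA was higher (1.01, 0.0339). In ribo ocp none of the 8 passed, and the widest difference was that of Dio1 in CPA18 against control (1.64, SE 0.55, edgeR adjusted p = 0.251). Gpx2, Gpx3, Txnrd3, Dio2 and Dio3 had 6 to 78 reads in the whole series, and Selenov is not listed.

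Of 17 genes for selenocysteine synthesis and insertion, 11 had a transcript with reads in every library. Their mRNA rose after 18 h for 3 and fell for 1, where 27.0% of all genes were higher and 7.89% lower. In Ribo-seq 5 rose and none fell (4 without the block, and 2 higher with 1 lower relative to the median gene), where 25.6% of all genes were higher. Median log2 fold changes were 0.35 by mRNA-seq and 0.40 by Ribo-seq, against 0.38 and 0.42 for all genes. Sars, the synthetase that charges the selenocysteine tRNA with serine and serves all serine codons too, rose by a log2 fold change of 1.18 in mRNA-seq (SE 0.25, adjusted p = 4.63e-05, and 0.266 without the block). Rpl30, a ribosomal protein that also binds SECIS elements, came to 0.96 (SE 0.25, adjusted p = 0.00109) and Eif4a3, an exon junction protein that binds some SECIS elements, to 0.88 (SE 0.25, adjusted p = 0.00347). Celf1, an RNA-binding protein, fell by 1.41 (SE 0.35, adjusted p = 0.000653), with RPKM of 3.61, 16.3 and 2.28 in control and 1.29, 4.24 and 1.83 in CPA18. These 3 did not pass without the block either (adjusted p = 0.339, 0.383 and 0.169).

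In Ribo-seq Eefsec, the elongation factor that brings the selenocysteine tRNA to the ribosome, rose by a log2 fold change of 1.86 (SE 0.46, adjusted p = 0.000826), from 2.73, 3.21 and 2.41 RPKM in control to 15.6, 12.9 and 6.07 in CPA18, on 6 to 9 reads per library. Rpl30 came to 1.19 (SE 0.20, adjusted p = 1.05e-06) and Scly, the lyase that frees selenium from selenocysteine, to 1.08 (SE 0.34, adjusted p = 0.0101). Relative to the median gene, Scly was at 0.65 (adjusted p = 0.145). Secisbp2, Pstk, Sephs1, Trnau1ap, Trit1 and Alkbh8 did not have a transcript with reads in every library. None of 7 genes for cysteine-containing relatives of selenoproteins (Gpx5 to Gpx8, Msra, Msrb2 and Msrb3) had one either, and they were not tested.

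Of 12 partners of the ER selenoproteins, 10 had a transcript with reads in every library, and most of these rose after 18 h. The mRNA rose for 7 and footprints for 6, where 27.0% and 25.6% of all genes were higher, and none fell. Vcp rose in mRNA-seq but did not pass in Ribo-seq (log2 fold change 0.97 and 0.14). Its ribo ocp differed by -0.84 (SE 0.30, edgeR adjusted p = 0.330), lower in 3 of 3 experiments. With the GC and length offset that difference passed (-0.96, edgeR adjusted p = 0.0274). Median log2 fold changes were 1.01 and 1.24 against 0.38 and 0.42 for all genes. The list was written with earlier results of these data known, and the study itself reports a rise of Sel1l and Derl2. These counts are therefore not an independent test. Derl3 mRNA came to 2.70 (SE 0.48, adjusted p = 7.61e-07), Ube2g2 to 1.88 (SE 0.26, adjusted p = 2.6e-10) and Syvn1 to 1.84 (SE 0.26, adjusted p = 5.32e-10). DERL3 is a derlin, SYVN1 the ubiquitin ligase and UBE2G2 the conjugating enzyme of ER-associated degradation. In Ribo-seq Ube2g2 came to 2.95 (SE 0.28, adjusted p = 4.44e-16), Derl3 to 2.57 (SE 0.56, adjusted p = 0.000438) and Derl1 to 1.5 (SE 0.19, adjusted p = 1.45e-10). Of the 7 mRNAs, Derl3 passed without the block, and all 6 footprint calls did, where 1.98% and 26.5% of all genes passed. Uggt1, the glucosyltransferase bound by SELENOF, had a log2 fold change of 0.17 in mRNA-seq (adjusted p = 0.623) and -0.01 in Ribo-seq (adjusted p = 0.989) after 18 h. After 1 h its footprints fell by 0.56 (SE 0.17, adjusted p = 0.0211, and 0.127 without the block) and those of Ube2g2 rose by 1.09 (SE 0.31, adjusted p = 0.0158, and 0.0870 without the block), both named after their values were seen.

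Of 18 genes of the glutathione and thioredoxin systems, 16 had a transcript with reads in every library. After 18 h the mRNA rose for 6 and fell for 1, where 27.0% of all genes were higher and 7.89% lower. Footprints rose for 6, where 25.6% of all genes were higher. The medians were 0.47 and 0.35, against 0.38 and 0.42 for all genes. Slc3a2, the heavy chain of amino acid transporters including that for cystine, led with a log2 fold change of 2.69 in mRNA-seq (SE 0.27, adjusted p = 5.19e-19, and 0.0144 without the block) and 2.33 in Ribo-seq (SE 0.17, adjusted p = 1.77e-23). Txn2, the mitochondrial thioredoxin that TXNRD2 reduces, came to 1.34 in mRNA-seq (SE 0.26, adjusted p = 5.64e-06) and 1.78 in Ribo-seq (SE 0.26, adjusted p = 8.72e-09). Prdx6, a peroxiredoxin, came to 1.34 (SE 0.32, adjusted p = 0.000311) and 0.97 (SE 0.31, adjusted p = 0.0113), the latter 0.53 relative to the median gene (adjusted p = 0.209). Glrx, a glutaredoxin, fell by 1.15 in mRNA-seq (SE 0.30, adjusted p = 0.0011). Without the block the adjusted p-values in mRNA-seq were 0.212 for Txn2, 0.195 for Prdx6 and 0.162 for Glrx. Relative to the median gene the calls of this list split into 3 higher and 2 lower in mRNA-seq and 2 higher and 2 lower in Ribo-seq. With the GC and length offset they were 4 higher and 2 lower in mRNA-seq and 2 higher and 5 lower in Ribo-seq.

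**Figure D4:**
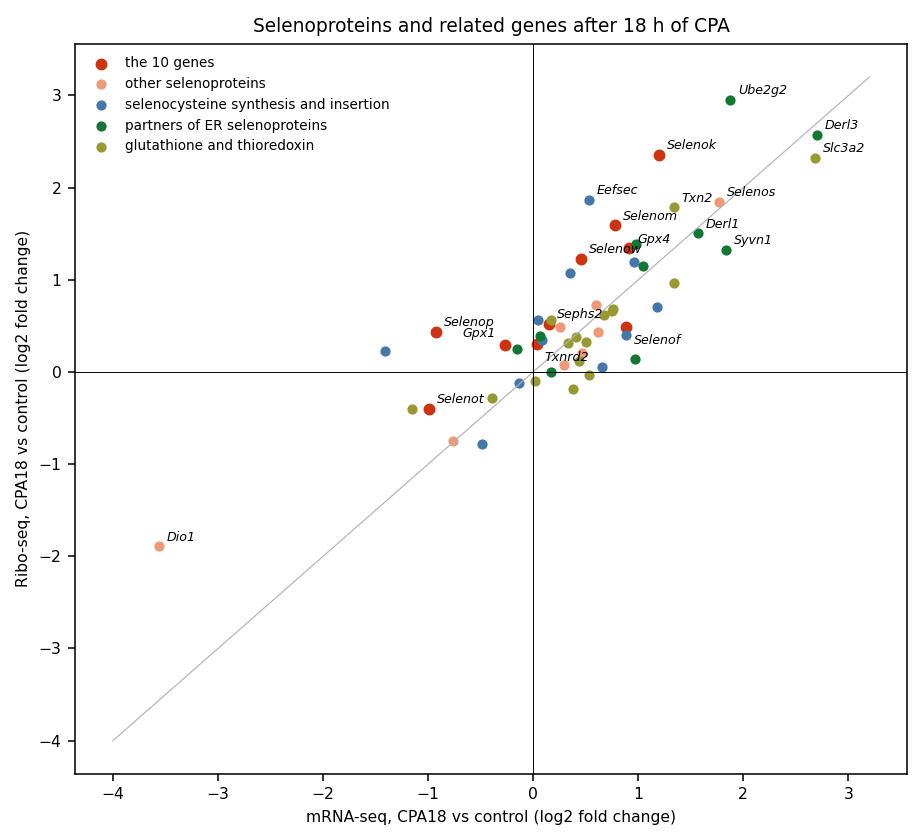
edgeR log2 fold change of CPA18 against control in mRNA-seq (horizontal) and Ribo-seq (vertical), with the line of equal change. Shown are the 10 genes and the genes of the related lists that had a transcript with reads in every library. Selenok lies above the line at 1.2 and 2.35, and Dio1 is far below 0 in both assays. Some partners of the ER selenoproteins, such as Derl3 and Ube2g2, reach the upper right. Uggt1, Vcp, Ubxn8 and Ubxn6 did not pass in Ribo-seq (-0.01, 0.14, 0.25 and 0.39).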

How the data were processed

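mRNA-seq and Ribo-seq libraries of MIN6 cells were analysed from tables of the whole series. Per the labels and methods, reads that passed filters on quality and on length were mapped by the authors to mouse RefSeq RNA sequences (GRCm38.p6) using Bowtie2. The deposited counts are raw reads per transcript, the deposited RPKM scales them to library total and transcript length, and the lengths in nucleotides were deposited as well. RPKM recomputed from the counts differed by at most 0.00111 (log2). Of 30741 transcripts, 30232 matched the RefSeq annotation with their version, 478 without it and 31 not at all. A transcript needed at least 1 read in each of the 18 libraries, which 10163 had, and their values were added up to 6929 genes. Libraries were grouped by treatment and assay from their titles, and total counts ran from 168129 to 4755030.

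Differences were tested by the quasi-likelihood test of edgeR 4.0.16 (R 4.3.3) on the counts, fitted over the 3 treatments of an assay together, scaled by total count and with the experiment as a block. For ribo ocp the tested term was the assay-by-treatment interaction over all libraries, blocked by experiment within assay. Calls were made at a Benjamini-Hochberg adjusted p of 0.05 over all genes. The pairing comes from the replicate numbers, which the labels call batches, and deviations from the treatment means correlated within experiments at r = 0.112 to 0.762 in mRNA-seq and 0.0801 to 0.190 in Ribo-seq (9 pairs each). Alternatives were no block, other filters, scalings, transcripts and libraries, limma 3.58.1 on log2(RPKM + 0.5) or with a pseudocount of 1, and DESeq2 1.42.0. An offset for GC content and length (natural splines, 4 degrees of freedom) and leaving out the control mRNA-seq library of experiment 1 were added after seeing the data. The scripts were tested on simulated data.

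Named are all 10 genes, every other selenoprotein with reads in all libraries and, from each related list up to 3 rises and 3 falls of largest log2 fold change among those that passed in CPA18 against control. The members and lists were chosen with earlier results of these data known.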

Additional observations from a re-analysis of the deposited data

Results flagged for a closer look

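Selenow after 1 h of CPA was lower than control in mRNA-seq in all 3 experiments (log2 ratios of RPKM -0.23, -0.84 and -0.03) and higher in Ribo-seq in all 3 (0.72, 0.31 and 0.45). The opposite directions flagged it. The ribo ocp difference was 0.86 (log2, SE 0.33, n = 3), with an edgeR adjusted p of 0.489, so the difference between assays did not pass. The mRNA-seq value of experiment 3 is close to 0, and Selenow footprints rested on 33 to 96 reads per library. Groups of 3 libraries were not searched for outliers.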

How the results depend on the processing

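With no replicate block 0 of 10 genes passed in mRNA-seq for CPA18 against control and for CPA18 against CPA1 (5 each with it). In these comparisons 1.98% and 2.16% of all genes passed. In Ribo-seq for CPA1 against control 0 passed (1 with it), where 3.16% of all genes did. In Ribo-seq CPA18 against CPA1, 4 in place of 6 passed, where 19.2% of all genes did. The cause was not tested. For CPA18 against control in mRNA-seq 3 passed without the control library of experiment 2 and 4 without that of experiment 1. Leaving out each experiment in turn gave 2 to 4 genes for mRNA-seq CPA18 against control, 4 to 5 against CPA1, 0 to 1 for Ribo-seq CPA1 against control, 4 to 5 for CPA18 against control and 3 to 5 against CPA1. In Ribo-seq CPA1 against control DESeq2 and limma with either pseudocount called 0, and for CPA18 against CPA1 limma called 3. Of all 6929 genes DESeq2 called 340 in the former, and limma at a pseudocount of 0.5 called 10 and 1251. With the assays of the experiment 2 controls exchanged, 0 passed in each Ribo-seq comparison and 3 for mRNA-seq CPA18 against CPA1. Shares of all genes are not given for fits that left out libraries or exchanged assays, so those counts have no background beside them. Values that passed with the opposite sign to the fit by library total were, for mRNA-seq CPA18 against CPA1, Gpx1 at -0.74 (GC and length offset), -0.47 (TMM) and -0.41 (totals without Ins1, Ins2 and Lars2), Txnrd2 at -0.68 and Sephs2 at -0.56 (offset), and for CPA18 against control Txnrd2 at -0.57 (offset). Of 1380 values of a gene under an alternative, 75 lost and 18 gained significance and 6 reversed. A further 143, which passed in neither fit, changed sign.

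Depth limits Selenop most, and the CPA18 Ribo-seq libraries hold the fewest reads. Ribo ocp carries the error of both assays.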
